A study of Mus musculus with 8 samples.

Results

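The cytosolic ribosomal protein genes were followed across testes of young mice with and without Ip6k1, the gene of an inositol hexakisphosphate kinase. Members were chosen by gene name. They are the array probes whose name starts with Rpl or Rps and a digit, or is Rplp0, Rplp1, Rplp2, Rpsa or Fau. Rps6k kinases, pseudogene names, Rpl10 and Rpl10l were left out. The rule found 190 of 55681 probes, and these named 85 genes. No expression value entered the choice. All 85 genes were among the 26583 genes tested, each read from 1 probe, and 189 of the 190 probes passed the filter on dim signal.

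Total testis RNA from C57BL/6 mice was hybridised to 8 one-colour arrays in 4 groups of 2, which the labels call biological replicates. Ip6k1+/+ (wild type) and Ip6k1-/- (knockout) littermates came from crosses of Ip6k1+/- parents, so both genotypes shared one strain background. Animals were killed with CO2 at 17 dpp (days postpartum), before weaning, or at 26 dpp, after weaning. The part of Ip6k1 that was deleted is not given in the sources used here.

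Each ribosomal protein is a fixed component of the large (Rpl) or small (Rps) subunit, and the subunits are assembled in the nucleolus on ribosomal RNA. Their mRNAs are among the most abundant in growing cells, and many begin with a C followed by pyrimidines, the 5′ terminal oligopyrimidine tract through which their translation is controlled together. In the male germ line the sex chromosomes are silenced when spermatocytes pass through meiosis, and some X-linked housekeeping genes have autosomal copies that are expressed in testis, Rpl39l and Rpl36al being those of Rpl39 and Rpl36a.

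The start sites are shown to set the X-linked members and their autosomal copies beside members with a pyrimidine tract. Each line gives 10 bases before to 20 bases after the RefSeq transcript start in GRCm38.p6, and capitals mark a C followed by at least 4 pyrimidines that begins within 5 bases of the start.
Rps6, chr4:86857348-86857377, minus strand: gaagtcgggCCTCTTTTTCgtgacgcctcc
Rplp2, chr7:141447641-141447670, plus strand: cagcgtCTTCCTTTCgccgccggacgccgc
Rps18, chr17:33955646-33955675, minus strand: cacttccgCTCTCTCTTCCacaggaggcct
Rpl39, chrX:37085203-37085232, minus strand: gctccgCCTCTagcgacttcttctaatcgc
Rpl36a, chrX:134585644-134585673, plus strand: cccaggcaccgcctataaacttccgttgcg
Rps4x, chrX:102189372-102189401, minus strand: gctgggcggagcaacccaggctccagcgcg
Rpl39l, chr16:10170218-10170247, plus strand: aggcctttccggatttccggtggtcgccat
Rpl36al, chr12:69184048-69184077, minus strand: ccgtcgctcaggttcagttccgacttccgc

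Of these windows, those of Rps6, Rplp2, Rps18 and Rpl39 held a marked tract and those of Rpl36a, Rps4x, Rpl39l and Rpl36al did not. RefSeq promoters of 250 bases before to 50 bases after the start were matched for 63 of the 85 genes, which gave 75 promoters. A C exactly at the annotated start followed by 4 pyrimidines was found in 18.7% of member promoters and 2.51% of all 32851 promoters. A C followed by 6 pyrimidines within 5 bases of the start was found in 32% of member promoters against 6.48% of all. CCGGAAG, searched on both strands, was in 34.7% against 8.86%, and AAGATGGC in 12% against 2.75%. TATAAA was in 9.33% of member promoters and 13.6% of all. These are matches of letters in the annotated window, not mapped start sites or bound factors. Genes with and without the C and 6 pyrimidines had median age differences in wild type of -0.75 (24 genes) and -0.80 (39 genes) on the log2 scale.

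The probes are shown for the X-linked members and the paralogues named beside them, because the comparison rests on telling the copies apart. Each line gives the first 30 of 60 bases, with the mm9 position in the files, and no letters are marked.
Rpl39, chrX:34622618-34622677, minus strand: gactgaggatttatactgaattgtcatcaa
Rpl39l, chr16:10174657-10174716, plus strand: ctgtgctttagtgagttcattcagcagttc
Rpl36a, chrX:131122540-131122599, plus strand: cctttgattgcagttgttcgtttgggaggg
Rpl36al, chr12:70283732-70283791, minus strand: tctgagaggaaaatactgaagcagtagaga
Rps4x, chr5:3876189-3876248, plus strand: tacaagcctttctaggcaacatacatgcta
Rps4y2 (now Rps4l), chr6:148304043-148304102, plus strand: ggggaaggggcgtttacgtttgtttatact

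The tested probes of Rpl39 and Rpl39l shared no word longer than 5 bases, and those of Rpl36a and Rpl36al none longer than 6. For Rps4x and Rps4y2 none was longer than 7. Only probes were compared with each other, not a probe with the other copy's transcript. Whether a probe reads both copies was therefore not tested. Rps4x is on the X chromosome in RefSeq, but the files place its tested probe on chromosome 5 and its other probe on chromosome 3. Ribosomal protein genes have many processed copies, and 25 member probes of 17 genes had file coordinates on another chromosome than their RefSeq gene. Signal from such copies cannot be told apart from that of the parent here. Of the genes tested, 8 rested on such a probe, with a median wild type age difference of -0.91, against -0.77 for the other 77.

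Between 59.8% and 65.6% of probes were well above background on each array. Ip6k1 read 1.58, 1.67, 1.55 and 1.50 on the 4 knockout arrays, against 2.38 and 2.48 in the younger and 2.92 and 2.89 in the older wild types. All levels are log2 processed signal minus that of the array's 75th percentile. Knockout replicate 2 at 26 dpp was closer to the younger arrays (r = 0.917 to 0.948 over all genes tested) than to the others of its own age (r = 0.838 to 0.873). Its summed level of 18 spermatid markers was 6.86, against 9.87 to 11.02 on the 3 other arrays of 26 dpp and 3.91 to 4.67 at 17 dpp. Both wild type arrays of 17 dpp carried epididymis markers, with a summed level of 4.58 and 6.22 for 12 genes against -0.59 to 1.49 on the other 6 arrays. Replicate 2 of these also carried adipocyte markers at 8.05, where the other 7 arrays lay between 1.37 and 5.08. Arrays of 17 and 26 dpp lay in different rows of 1 slide, so age and slide position cannot be told apart. Results that rest on these arrays are given with and without knockout replicate 2 at 26 dpp, and the part of the epididymis and adipocyte RNA in them was not tested.

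The members were bright, and every tested member probe was well above background on all 8 arrays. The median member stood above 98.0% to 99.1% of all genes tested on each array. The member median of the younger animals was 7.06 and 7.18 for the wild types, with 7.02 and 7.01 for the knockouts. The older animals had medians of 6.27 and 6.24 (wild type) and of 6.15 and 7.13 (knockout). Thus 3 of the 4 arrays of 26 dpp lay below all 4 of 17 dpp, and knockout replicate 2 lay among the younger ones. That array was above the 3 other 26 dpp arrays for 82 of the 85 members. Its difference from their mean had a median of 0.893 over the members. It was within the range of the 17 dpp arrays for 46 members, above that range for 35 and below it for 4.

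**Figure D1:**
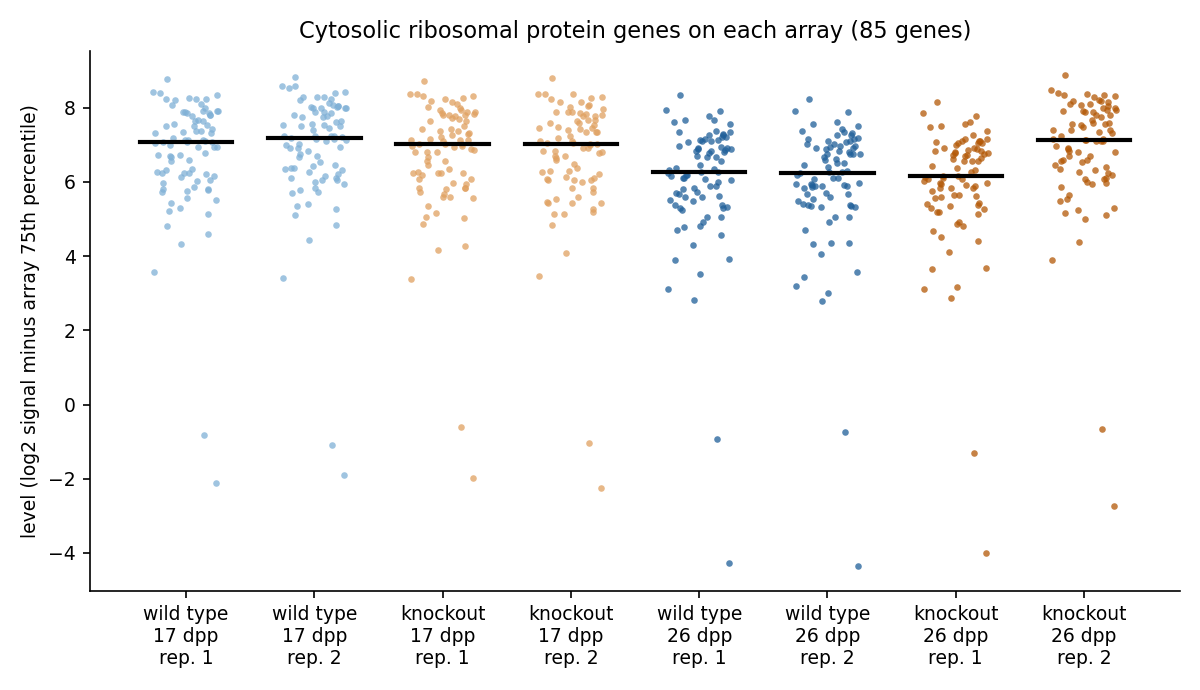
Level of each of the 85 member genes (points) and their median (black line) on each of the 8 arrays, as log2 signal minus that of the array's 75th percentile. The medians at 26 dpp are 6.27, 6.24 and 6.15 on 3 arrays and 7.13 on knockout replicate 2, near the 7.01 to 7.18 of the 17 dpp arrays.

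Ribosomal protein mRNAs were lower at 26 than at 17 dpp in wild type testis. The difference was below 0 for 81 of 85 members, with a median of -0.79 on the log2 scale, and for all 73 subunit genes that are neither X-linked nor paralogues. Both arrays of 26 dpp were below both of 17 dpp for 79 members, a pattern that 57.3% of all genes tested showed. Only Rpl22l1 and Rpl39l were higher without overlap, as were 31.1% of all genes. The median over all genes tested was itself -0.51, so the members' median lay 0.279 below it. The median was -0.77 over 49 large subunit names and -0.84 over 36 small subunit names, which include Rpl7l1 and Rps19bp1, and the difference was not tested. Fewer cells of a type and less RNA per cell cannot be told apart in whole testis.

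With limma over all 8 arrays and Benjamini-Hochberg adjustment over all genes, 10 members fell and 1 rose at an adjusted p under 0.05. Those shares are to be read against 27.2% of all genes called lower and 18.5% called higher. At an unadjusted p under 0.05, 39 members were lower, against 36.2% of all genes. Without knockout replicate 2 at 26 dpp the same test called 70 members lower, among them all 10, against 45.6% of all genes, and again 1 higher, against 24.7%. The differences themselves are the same in both fits and only the shared spread changed. For Rpl36a, for example, the standard error went from 0.59 to 0.23. Leaving out replicate 1 of that group in its place also gave 70 members lower, since the group then has 1 array and adds nothing to the spread. Leaving out 1 or the other 17 dpp knockout array lowered the calls among all genes and, by a larger part, among the members. Leaving out any 1 of the 4 wild type arrays leaves that group with 1 array assumed to vary like the other groups. Calls then nearly vanished over all genes, so their loss is no result about the members. The member median stayed between -0.88 and -0.71 as each array was left out.

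**Figure D2:**
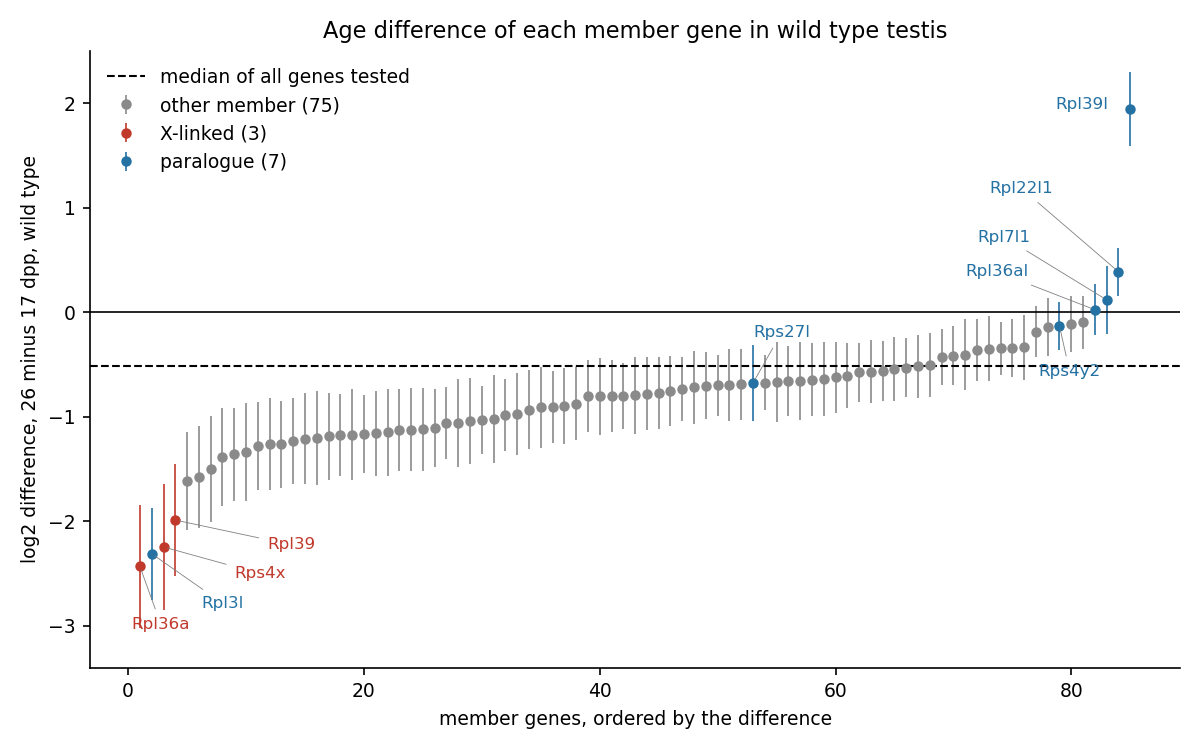
Log2 difference between 26 and 17 dpp in wild type for each member gene, in order, with the standard error from limma (2 arrays per group). The X-linked members Rpl36a, Rps4x and Rpl39 and the paralogue Rpl3l are lowest at -2.43 to -1.99, Rpl39l is highest at 1.94, and the dashed line is the median of all genes tested at -0.51.

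The 3 X-linked members were among the 4 lowest of the 85. At 17 dpp Rpl36a, a large subunit protein, read 5.55 and 5.83 on the wild type arrays, with 5.59 and 5.42 for the knockout. By 26 dpp the wild type readings were 3.50 and 3.01, and the knockout ones 3.18 and 5.01. All 4 arrays of 26 dpp were below those of 17 dpp, and knockout replicate 2 came closest to them. In wild type the fall was 5.39-fold (log2 -2.43 ± 0.59 SE, limma adjusted p = 0.0247). Without knockout replicate 2 at 26 dpp its adjusted p was 0.000832 by limma.

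Rps4x, the X-linked form of small subunit protein S4, read 5.73 and 6.10 on the younger wild type arrays, with 5.83 and 5.46 for the younger knockouts. By 26 dpp the wild type arrays read 3.90 and 3.44 and the knockouts 3.65 and 5.48, so only knockout replicate 2 overlapped the younger arrays. Its wild type difference was -2.24 ± 0.60 (SE, limma adjusted p = 0.0305). Rpl39, which encodes a small protein of the exit tunnel, read 5.52 and 5.95 (wild type) and 5.56 and 5.42 (knockout) in the younger testes. In the older testes it read 3.93 and 3.57 (wild type) and 3.68 and 5.29 (knockout). No array of 26 dpp overlapped those of 17 dpp, and the wild type difference was -1.99 ± 0.53 (SE, limma adjusted p = 0.0306).

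The fall of the X-linked members was seen with each of their probes. All 8 of their kept probes were called lower when every kept probe was tested by limma, at -2.43 to -1.23, where 26.6% of all kept probes were called lower. Genes outside the members with an X chromosome probe also had a low median in wild type, at -1.20 over 1143 genes. Of these, 541 (47.3%) were called lower and 169 (14.8%) higher, against 27.2% of all genes lower and 18.5% higher. Their upper quartile was 0.25, and 323 were above 0. The list was taken by probe position, which for some members was not that of the gene. Its median is lower than the -0.80 of the 73 subunit genes that are neither X-linked nor paralogues. No test was made between these lists.

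The paralogue Rpl3l was also called lower by limma with all arrays, at -2.31. The other 6 members called lower had smaller differences. Rpl10a of the large subunit went from 7.55 and 7.74 in younger wild types to 6.19 and 5.87 in older ones (log2 -1.61 ± 0.47 SE, limma adjusted p = 0.0366). Rps19, a small subunit protein needed to mature ribosomal RNA, went from 4.33 and 4.43 to 2.82 and 2.79 (log2 -1.58 ± 0.49 SE, limma adjusted p = 0.0419). Neither gene overlapped between the ages in wild type, where 57.3% of all genes were lower without overlap. Rps2, Rpl27a, Rpl19 and Rps9 were at -1.36, -1.16, -1.06 and -1.03, with limma adjusted p between 0.0448 and 0.0484. Rps3 and Rps3a, chosen after their values were seen, had larger differences of -1.50 and -1.39 and missed the threshold at 0.0531 and 0.0525 by limma, so the list of called members is not the list of the largest differences.

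The acidic stalk recruits translation factors to the large subunit. Its base, Rplp0, went from 8.09 and 8.12 to 7.66 and 7.43 between the wild type ages, a difference of -0.56. Rplp1 went from 8.0 and 8.06 to 7.12 and 7.07 (-0.93). That probe is placed on the X chromosome, while RefSeq has the gene on chromosome 9. The Rplp1 probe on chromosome 9 was at -1.17 (limma over every kept probe, adjusted p = 0.0492), where 26.6% of all kept probes were called lower. Rplp2 went from 8.34 and 8.43 to 7.35 and 7.18 (-1.12). None of these 3 overlapped between the ages in wild type, where 57.3% of all genes were lower without overlap. With 1 probe per gene, none passed the limma threshold with all arrays (adjusted p = 0.145, 0.0828 and 0.0603). All 3 were called lower without knockout replicate 2 at 26 dpp. Rpsa, the small subunit protein also known as laminin receptor, had a difference of -1.16 with its tested probe, the smallest fall of its 4 kept probes. Limma over every kept probe called those at -2.14 (a dim probe) and -1.50 lower (adjusted p = 0.0133 and 0.0377). Those at -1.26 and -1.16 missed the threshold (0.0509 and 0.0598). Fau, made as a ubiquitin-like fusion to the small subunit protein S30, had a difference of -0.65. Both missed the limma threshold with all arrays (adjusted p = 0.0585 and 0.161) and passed without that array.

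The fall had no relation to brightness among the members. Across the 85 genes, the wild type level at 17 dpp and the age difference had a Pearson r of 0.00318 and a Spearman rho of -0.0227, given as a description because the genes share the same arrays. Rps14 of the small subunit, the brightest member, was chosen after its values were seen. Its wild type levels went from 8.78 and 8.82 to 8.33 and 8.23, a difference of -0.52. Rps6, the small subunit protein phosphorylated by S6 kinases and also chosen after the fact, went from 7.06 and 7.18 to 6.38 and 6.46 (-0.70).

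Of the 7 paralogues, Rpl39l, Rpl22l1, Rpl7l1 and Rpl36al had wild type differences above 0, and Rps4y2, Rps27l and Rpl3l below. Rpl39l, the autosomal copy of Rpl39, read 4.59 and 4.84 in younger wild types, with 4.26 and 5.19 in younger knockouts. The older wild types read 6.55 and 6.76 and the older knockouts 6.56 and 6.41. The ages did not overlap in either genotype, and here knockout replicate 2 lay near the other arrays of its age. Rpl39l rose 3.84-fold in wild type (log2 1.94 ± 0.35 SE, limma adjusted p = 0.013) and by 1.76 ± 0.35 on the log2 scale in knockout (adjusted p = 0.0294). With 1 probe per gene, no other member was called higher by limma in either genotype.

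Rpl36al, the autosomal copy of Rpl36a, read 5.20 and 5.35 in younger and 5.25 and 5.34 in older wild types. Its difference was 0.02 ± 0.24 (SE, limma adjusted p = 0.938), and its sign changed with quantile or median scaling. Rps4y2 had a difference of -0.13 ± 0.23 (SE, limma adjusted p = 0.631), with levels of 5.02 to 5.27 at 17 dpp and 5.05 to 5.13 at 26 dpp, and it turned positive without scaling. Rpl22l1, the close relative of Rpl22, read 4.81 and 5.11 in younger and 5.30 and 5.39 in older wild types (log2 0.39 ± 0.23 SE, limma adjusted p = 0.194). Rpl22 itself went from 7.33 and 7.52 to 6.24 and 5.93 (log2 -1.34, limma adjusted p = 0.0577). Its other kept probe was at -1.77 (limma over every kept probe, adjusted p = 0.0157).

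**Figure D3:**
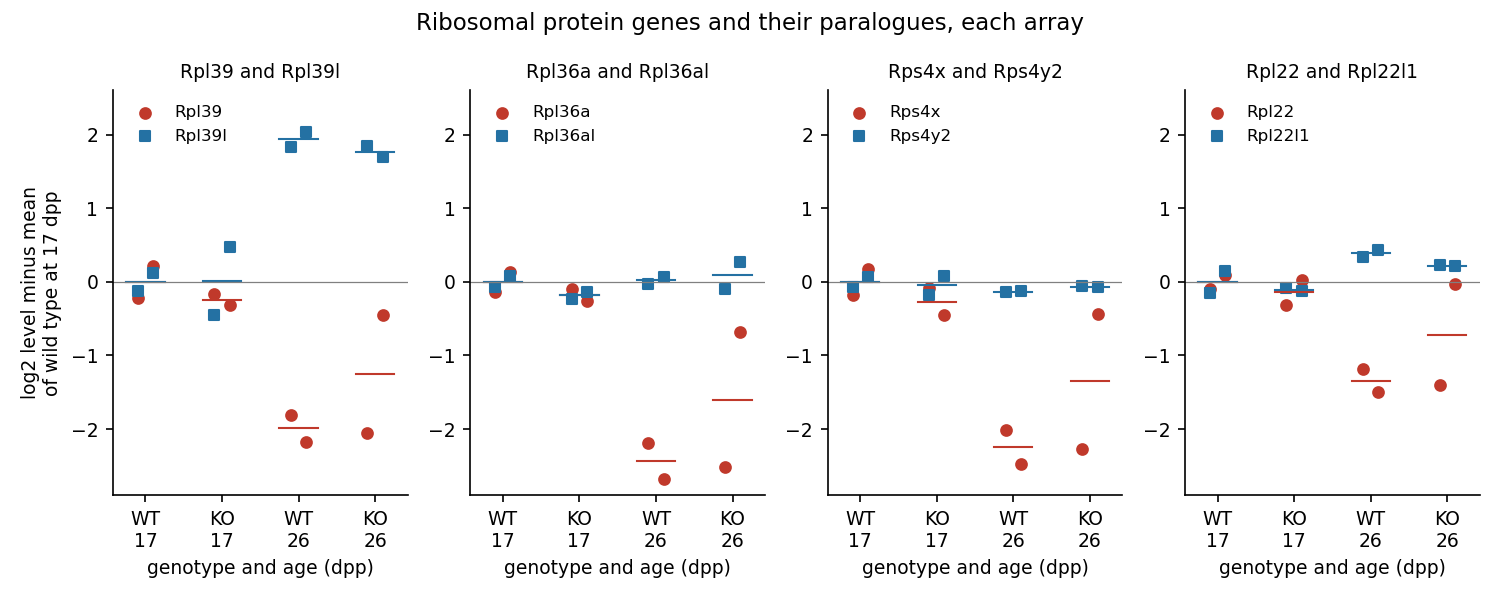
Level on each array relative to the gene's own wild type mean at 17 dpp (log2), for the X-linked Rpl39, Rpl36a and Rps4x and for Rpl22 (circles) and their paralogues (squares), with group means as lines (n = 2 arrays each). The X-linked genes lie at -2.43 to -1.99 in wild type at 26 dpp, while Rpl39l rises by 1.94 and Rpl36al moves by 0.02.

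The difference between the members of each pair was tested directly, as the change with age of the paralogue's level relative to its partner's within each array, over the 4 arrays of each age. A constant scaling of an array cancels in this measure. The test was an exact two-sided permutation test of 4 against 4 arrays, with p adjusted over the 7 pairs, and the smallest p it allows is 0.0286. Rpl39l moved by 3.35 relative to Rpl39, Rpl36al by 2.07 relative to Rpl36a, and Rpl22l1 by 1.31 relative to Rpl22. In each of these pairs the arrays of the 2 ages did not overlap (exact p = 0.0286, adjusted 0.05). Rps4y2 moved by 1.58 relative to Rps4x, but knockout replicate 2 at 26 dpp, at 0.24 above the 17 dpp mean, lay below 1 array of 17 dpp (exact p = 0.0571, adjusted 0.0667). Without that array the shifts were 3.79, 2.45, 1.68 and 2.03 in the same order, where 4 against 3 arrays allow no exact p under 0.0571 and none overlapped.

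The other 3 pairs showed no common direction. Rpl3l, the muscle form of Rpl3 and a dim probe here, read -2.12 and -1.90 in younger and -4.28 and -4.35 in older wild types. It fell further than Rpl3, with differences of -2.31 (limma adjusted p = 0.0142) and -1.28 (0.0502), and a shift between them of -0.863 (exact p = 0.0286, adjusted 0.05). Rpl7l1, which despite its name acts in ribosome assembly, had a difference of 0.12 against -0.74 for Rpl7. That shift was 0.524 (exact p = 0.0571, adjusted 0.0667). Rps27l and Rps27 moved almost equally at -0.68 and -0.66, with a shift of -0.0687 (exact p = 0.343, adjusted 0.343). Among the rule's other names, Rps19bp1 is not a subunit, and Rps12l2 has no current symbol in the tables used here.

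Probes of one gene mostly told the same story. Of 62 genes with more than 1 kept probe, 59 had all of them below 0 in wild type, and the median range over a gene's probes was 0.185. The widest range was that of Rps27a, which encodes ubiquitin fused to small subunit protein S27a. Its tested probe read 7.76 and 7.98 in younger and 7.15 and 7.01 in older wild types (-0.79), and a neighbouring probe also had a difference below 0, at -0.69. A probe placed upstream of both on the same strand rose instead. Its first 30 bases, with no letters marked, are:
Rps27a, chr11:29447939-29447998 (mm9), minus strand: aaagaaaccgagcgaacgagcaaatctggc
It read -3.89 and -3.80 in younger wild types and -3.05 and -3.44 in younger knockouts. The older wild types read 1.94 and 2.20 and the older knockouts 1.97 and 0.00395. The ages did not overlap, and its wild type difference was 5.91 (limma over every kept probe, adjusted p = 0.00579). The array design gives this probe another transcript accession than the other probes of the gene. Rpl36a (-2.43 to -1.23) and Rpl23 (-1.93 to -0.76) had the next widest ranges, with all probes below 0.

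In knockout testis the same comparison depended on which array of 26 dpp was used. With both arrays, the member median was -0.29, against -0.34 for all genes, and 75 of 85 members were below 0. Limma called no member lower, where 8.1% of all genes were, and Rpl39l alone higher, where 7.7% were. Both arrays were below both of 17 dpp for Rpl36a, Rpl39, Rpl3l and Rps9 (38.2% of all genes) and above for Rpl39l, Rpl36al and Rpl22l1 (21.9% of all genes). Without replicate 2, which leaves 1 older knockout array assumed to vary like the other groups, the median was -0.75 and limma called 60 members lower, against 40.3% of all genes, and Rpl39l higher, against 21%. All 60 were also called lower in wild type by that fit. Replicate 2 alone gave a median of 0.16 and no member called lower, against 10.2% of all genes.

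In that reduced fit, under the same assumption, Rpl36a was at -2.33, Rps4x at -2.0 and Rpl39 at -1.81 in knockout (limma adjusted p = 0.00279, 0.00508 and 0.00482). The wild type differences were -2.43, -2.24 and -1.99, and the test of the change between genotypes called none of the 3. With both arrays their knockout differences were -1.42, -1.08 and -1.01 (limma adjusted p = 0.148, 0.241 and 0.225). Rpl3l was at -1.25 with both arrays and -1.90 without replicate 2 (limma adjusted p = 0.103 and 0.00258).

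Knockout and wild type members were close at 17 dpp. The median difference was -0.10, against 0.03 over all genes, and 78 of 85 members were below 0. No member passed limma, where 0.0903% of all genes were called lower and 0.00376% higher, and none reached an unadjusted p under 0.05, which 1.44% of all genes did. Both knockout arrays were below both wild type arrays for 29 members, a pattern 11.7% of all genes showed, and above for none (16.9% of all genes). The largest differences were those of Rps18 at -0.41, Rpl21 at -0.37 and Rps4x at -0.27 below 0, and Rpl7l1 at 0.12 and Rps13 at 0.06 above 0. Rps18 read 6.24 and 6.92 for the wild types, with 6.26 and 6.09 for the knockouts, so 1 wild type array was high and the groups overlapped. The median went from -0.18 to -0.02 as each array was left out, and to -0.03 with quantile normalisation. Epididymis markers were high on both wild type arrays of this age, so their part cannot be told apart from genotype. Adipocyte markers were high on wild type replicate 2 (8.05) and lower on replicate 1 (2.69). The part of either in this small shift was not tested.

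At 26 dpp the members were higher in knockout by a median of 0.39 with both arrays, against 0.12 over all genes, and 82 of 85 were above 0. No member passed limma, where 0.00752% of all genes were called lower and 0% higher, and none reached an unadjusted p under 0.05, which 2.42% of all genes did. Both knockout arrays were below both wild type arrays for 1 member (14.8% of all genes) and above them for 7 (17.8% of all genes). Rpl3l, Rps4x and Rpl36a had the largest differences at 0.95, 0.89 and 0.83, and Rpl39l, Rpl22l1 and Rpl7l1 the lowest at -0.17, -0.16 and -0.15. This excess was that of replicate 2. Without it the median was -0.06, 70 members were below 0 and limma called none, where 0.0263% of all genes were called lower and 0.0113% higher. Without replicate 1 the median was 0.87 and limma called 66 members higher, against 29.4% of all genes. Each of these fits compares 1 knockout array, with its spread taken from the other groups. Replicate 1 alone lay below both wild type arrays for 46 members.

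Averaged over both ages, no member differed between genotypes by limma at an adjusted p under 0.05, as 0% of all genes did, and none had an unadjusted p under 0.05, which 2.17% of all genes had. Ip6k1 itself was not called between genotypes (limma adjusted p = 0.9999 at 17 dpp, 0.523 at 26 dpp and 0.225 averaged). The absence of member calls between genotypes therefore does not show an absence of differences. The change of the genotype difference with age gave no member and 0% of all genes either. Without replicate 2 both counts were again 0 for the members, against 0.00376% of all genes in each direction for the average, and without replicate 1 they were 29 and 49 members higher, against 19.7% and 20.1% of all genes.

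The rest of the translation apparatus was less uniform with age. Among 78 mitochondrial ribosomal protein genes, which build the separate ribosome of mitochondria, limma called 14 lower and 6 higher in wild type, with a median of -0.31 and a range of -1.91 to 1.80. These counts and those of the next lists are to be set against 27.2% of all genes lower and 18.5% higher. Mrpl49 (-1.91) and Mrps24 (-1.85) were lowest and Mrpl1 (1.80) and Mrpl39 (1.76) highest. The members had 81 of 85 differences below 0, and these genes 51 of 78. No test was made between the lists.

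Of 38 translation factors, 4 were called lower and 3 higher by limma, with a median of -0.22. Eif4a1, the main helicase that unwinds mRNA leaders, went from 6.47 and 6.43 to 4.99 and 4.80 between the wild type ages, and Pabpc4, a poly(A)-binding protein, had a difference of -1.94. Its relatives Pabpc1 and the testis form Pabpc2 rose by 1.41 and 7.65. Of 77 ribosome biogenesis factors, 17 were called lower and 9 higher, with a median of -0.60 and 61 of the 77 differences below 0. Dkc1, the X-linked pseudouridine synthase of ribosomal RNA, was lowest at -2.92, followed by Noc2l at -2.43, while Wdr12 at 2.07 and Sbds at 2.00 were highest. Of 13 genes of RNA polymerase I and its regulators, 4 were called lower and 2 higher, with a median of -0.99. Polr1b (-2.49) and Mycn (-2.48) were lowest, and Taf1b (1.20) and Polr1d (1.03) highest. Without knockout replicate 2 at 26 dpp the counts were 35 lower and 11 higher for the mitochondrial genes, 16 and 5 for translation factors, 41 and 11 for biogenesis factors and 7 and 2 for polymerase I genes, against 45.6% lower and 24.7% higher over all genes.

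**Figure D4:**
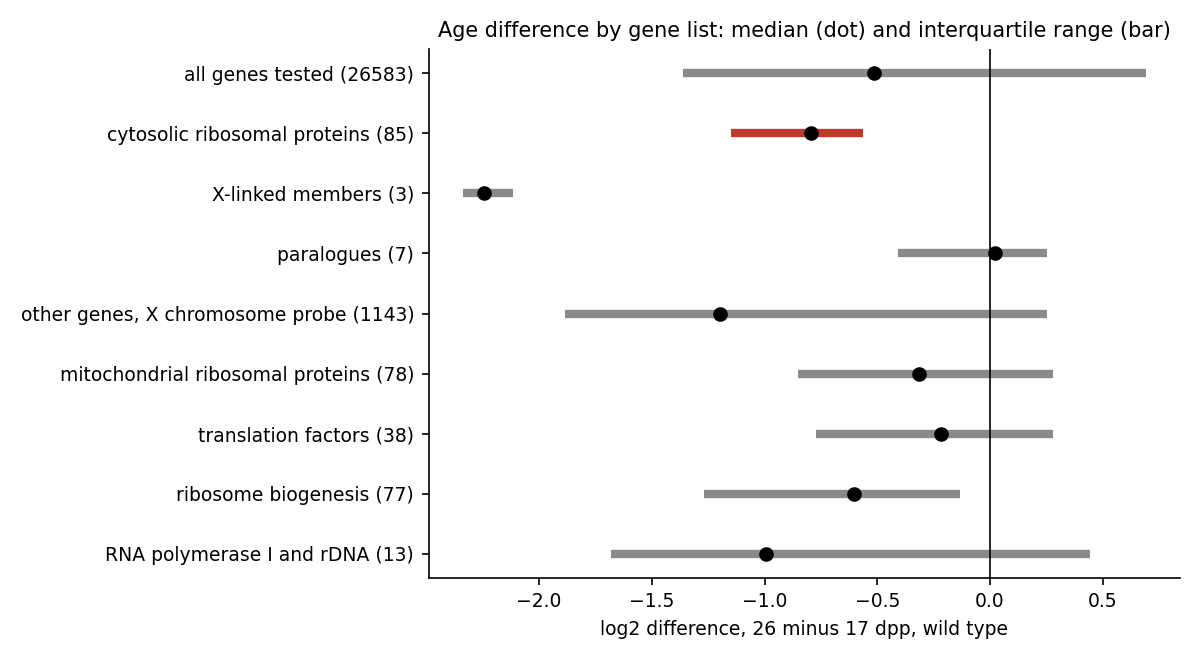
Median (dot) and interquartile range (bar) of the wild type log2 differences between 26 and 17 dpp in each gene list, with the number of genes tested in brackets. The 85 members have a median of -0.79 and a narrow bar below 0. The bar of ribosome biogenesis factors, from -1.27 to -0.13, and that of the X-linked members also lie below 0. The bars of all genes and of mitochondrial ribosomal proteins cross 0.

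The cell makeup of the testis changed over the same interval. Of 18 spermatid markers 17 were called higher by limma in wild type at 26 dpp and none lower, and of 12 pachytene spermatocyte markers 10 were higher. Of 20 spermatogonia markers 12 were lower and of 16 Sertoli cell markers 13. The summed spermatogonia level went from 7.57 and 7.67 to 7.07 and 7.03 in wild type, and it was 8.05 on knockout replicate 2 at 26 dpp against 7.07 on replicate 1. The summed Sertoli level was 9.77 and 9.66, then 8.49 and 8.35, with 9.55 and 8.46 on those knockout arrays. The array with the higher member level thus also had the higher spermatogonia and Sertoli levels and the lower spermatid level. The part of cell makeup in the members' differences was not tested.

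The 5 other genes most like the members over the 8 arrays, by Pearson correlation with the members' median profile, were Hk1, the first enzyme of glycolysis, at r = 0.999, and 4 probes known by design name alone. The median correlation over all other genes was 0.596. Of the members, Rpl39l (r = -0.71) and Rpl22l1 (r = -0.67) ran opposite to the profile.

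The size of the members' fall depended on how arrays were scaled. The wild type median was -0.79 with the 75th percentile, -0.85 with the array median and -0.38 without scaling. In each it lay 0.279 below the median of all genes. That gap could not differ between them, since these settings shift every gene of an array by the same amount. With quantile normalisation it was -0.56 and only 0.026 below the -0.53 of all genes. Background correction by normexp gave -0.74 (75th percentile) and -0.51 (quantile), 0.334 and 0.231 below all genes. The median was below 0 in all 23 alternatives. Some of these cannot move it, such as leaving out a knockout array or adding a variance trend, so the count is not independent agreement. How far the members fell beyond other genes differed between these scalings.

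**Figure D5:**
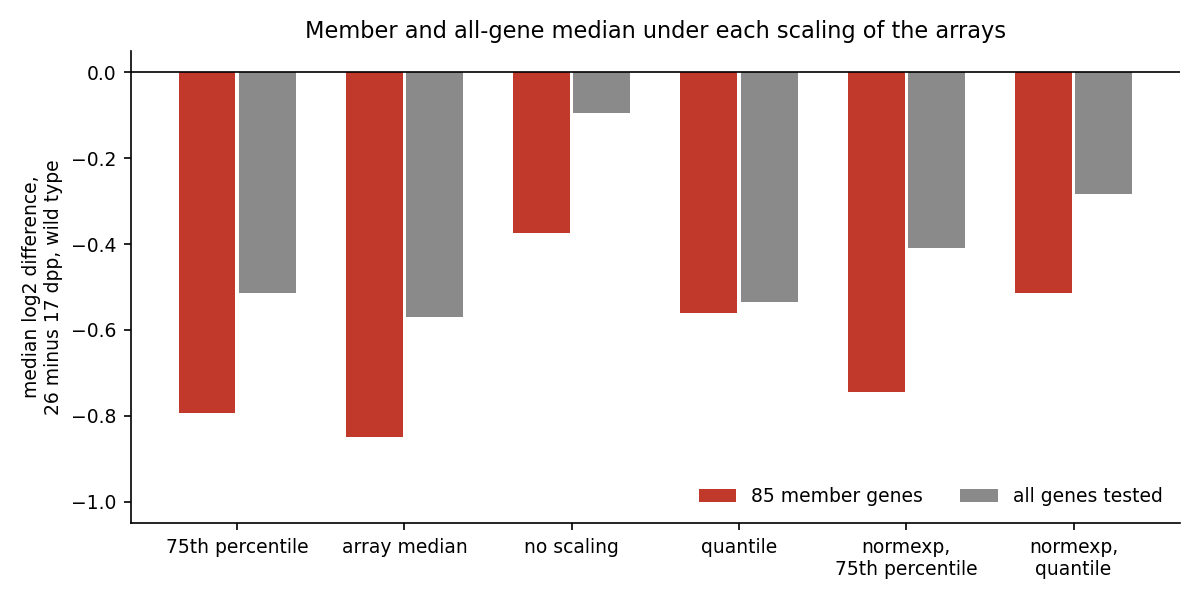
Median wild type log2 difference between 26 and 17 dpp for the 85 member genes and for all genes tested under 6 ways of scaling the arrays (bars from 0). The members' bar is lower throughout, and with quantile normalisation the bars are nearly equal at -0.56 and -0.53.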

How the data were processed

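Total RNA from 8 mouse testes was hybridised to 1-colour Agilent arrays, 2 per group in 4 groups. Per the file headers, spot intensity was extracted, background-subtracted and written as a processed signal by Agilent Feature Extraction 11.5.1.1. The authors' deposited value table holds log2 values, which matched the 75th percentile scaling used here (r = 0.9999 on each array) and served as an alternative. The way its scaling was done is not given in the sources used here. From the deposited intensities, log2 processed signal minus the log2 of each array's 75th percentile was computed, with control and outlier spots left out and spots of a probe averaged. A probe was kept where 1 or more groups had it well above background on each of their arrays (37807 probes), and the brightest kept probe stood for each of 26583 genes. Symbols in the array design can be old, and probes were renamed through RefSeq by accession (27503) or symbol (3554), the other 24624 keeping the file's name. Groups were compared with limma 3.58.1 in R 4.3.3 over all 8 arrays (residual df 4), with Benjamini-Hochberg adjustment over all genes and a threshold of 0.05, after a test on simulated data. Precision is limited by 2 arrays per group and 1 slide. P-values measure the spread between these arrays. Paralogue pairs were tested by exact permutation (scipy 1.17.1). Members and lists were chosen with earlier results of these data known. In each comparison the rule named up to 6 called members each way, the 3 highest and 3 lowest, the paralogue pairs, stalk genes, Rpsa and Fau. It also named the 3 member genes with the widest probe range, the 2 highest and 2 lowest of each pathway list, and the 5 genes most like the members. A single gene so named for knockout at 17 dpp is not reported here. Scaling, background correction, filters, probe choice, variance models, the replicate number and each array were varied in turn.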

Additional observations from a re-analysis of the deposited data

Results flagged for a closer look

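Rpl19 and Rps19, of the large and small subunit, drew attention because knockout and wild type arrays separated in opposite directions at the 2 ages. At 17 dpp both knockout arrays were below both wild type arrays (differences of -0.13 for Rpl19 and -0.25 for Rps19). At 26 dpp both were above (0.53 and 0.82). The genotype difference at 26 dpp minus that at 17 dpp was 0.667 for Rpl19 and 1.07 for Rps19. The limma test of that change did not pass for either gene (adjusted p = 0.780 for both). Most of the value lay with knockout replicate 2 at 26 dpp, which read 6.60 for Rpl19 and 4.38 for Rps19 against 5.65 and 2.86 on replicate 1.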

How the results depend on the processing

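Percentages in brackets here are of all genes called either way. In the main setting the wild type age comparison called 11 members, against 27.2% of all genes lower and 18.5% higher. It called 28 with quantile normalisation (49.6%), 7 with array median scaling (44.1%) and 7 without scaling (39.6%). It called 27 with normexp and the 75th percentile (45.9%), 40 with normexp and quantile (49.3%), 6 without a filter on dim probes (31.7%) and 27 with probes well above background everywhere (49.3%). It called 32 with a variance trend (47.4%), 71 with array weights (76%) and 69 with only the compared arrays (71.4%). It called 35 of 189 with every kept probe (44.1%) and 22 with the mean of the kept probes (46.8%). With the replicate number as a block it called 5 (33.8%). Correlations of same-numbered deviations ran from -0.401 to 0.110 over the pairs of groups. With 2 arrays per group they cannot tell whether the numbers pair the arrays. A block of crossed numbers, added after seeing the data, called 8 in wild type and 1 in knockout, and its share over all genes is not given here. The knockout age comparison called 0 instead of 1 with array weights (0.199%), with the replicate block (4.71%) and with only the compared arrays (0%), 3 with every kept probe (14.8%) and 2 with the mean of the kept probes (16.2%). Leaving out 1 array at a time gave 0 to 71 calls for wild type age and 0 to 61 for knockout age. It gave 0 to 66 for knockout at 26 dpp, 0 to 29 for the average and 0 to 49 for the change with age. Each fit without an array leaves a group with 1 array, assumed to vary like the other groups. The highest of these member counts came with many calls over all genes too. The counts of 0 in the age comparisons came with few or no calls over all genes. The swing of these counts is therefore no result about the members. The replicate block changed no other count of called members. Knockout at 17 dpp called 0 in each setting run. Of the named genes, Rpl36al with age was -0.0395 with quantile, -0.0316 with array median and -0.0698 with normexp and quantile scaling, and -0.0505 to 0.10 leaving out arrays. Rpl7l1 was -0.0125 to 0.25, Rps4y2 0.28 without scaling, and Rps27a 1.48 as a mean of its probes, whose upstream probe rose. For knockout at 17 dpp, Rps13 was -0.0135 with the mean of its probes and -0.0096 to 0.14 leaving out arrays, and Rpl7l1 -0.10 to 0.35. For knockout at 26 dpp, leaving out arrays gave Rpl36a -0.0823 to 1.75, Rps4x -0.0252 to 1.81 and Rpl7l1 -0.48 to 0.17. Causes were not tested. Every tested member probe was well above background on all 8 arrays. Limits are the 2 arrays per group and the knockout array of 26 dpp that stands apart. Others are epididymis RNA on both wild type arrays of 17 dpp and adipocyte RNA on replicate 2 of these.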
